A study of Mus musculus with 6 samples.

Results

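The Bcl2 survival and death family was followed across 6 Affymetrix arrays of left ventricle from male C57BL/6 mice. The family was defined by name as 4 survival genes (Bcl2, Bcl2l1, Bcl2l2 and Mcl1) and 6 death genes (Bax, Bak1, Bad, Bid, Bnip3 and Bcl2l11). Members were the probe sets whose single symbol in the platform annotation is one of these 10 names. That gave 10 probe sets of 9 genes among 35556 probe sets, with 2 for Bnip3 and none named Bax, which was not analysed here. The family was taken up because Bcl2l1 measured higher in the knockout. Its own values are therefore given as a description, with no test, and a shift of the family in the direction of Bcl2l1 is not independent of that choice.

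The knockout group held 3 arrays from mice lacking MURC, the muscle protein of caveolae encoded by Cavin4, labelled as 11, 11 and 13 weeks old. The wild-type group held 3 arrays labelled as 13, 13 and 12 weeks old. All were untreated as far as the labels say. The targeting construct, the cells in which the gene was deleted and whether each array came from its own animal were not stated in the labels, so each p-value covers only the spread among these arrays.

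Proteins of this family decide whether the outer mitochondrial membrane stays closed. Bax and Bak1 form the pore through which cytochrome c leaves, the survival proteins hold them in check, and the BH3-only proteins are the stress-activated members that block the survival proteins or activate the pore formers. Heart muscle cells are long-lived and hardly replaced, and in them Bnip3 is also known for marking mitochondria for removal.

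Each array followed its label in Cavin4, whose log2 signal was at most 5.74 in the knockout and at least 8.07 in the wild type. The array medians lay between 4.60 and 4.71. The 7 cardiomyocyte markers had a mean log2 signal between 12.61 and 12.63 on every array. Of 6 listed atrial markers, Myl4 and Myl7 set knockout replicate 2 apart, at 8.67 and 7.22 against at most 5.61 and 4.11 on the other arrays. Nppa was 11.44 there against at most 11.13, and Dkk3 4.51 against at most 4.50. Sln and Bmp10 lay below the filter on low signals, and Bmp10 was not highest there. Values without knockout replicate 2 are given where they bear on a member. In bulk tissue, fewer cells of a type and less RNA per cell cannot be told apart.

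The promoter windows of 3 members show the DNA around a start site of Bcl2l1 and Bcl2l11, the members with the widest difference between genotypes in each direction, and of Bnip3, known as a hypoxia-regulated gene. They are RefSeq sequences of GRCm38.p6, running from 250 bases before a start site to 50 bases after it. Of the 10 names, all had at least 1 window, and Bcl2l1 had 3 and Bcl2l11 had 2, of which 1 each is shown. Capitals mark matches, on either strand, to 4 sets of letters: TTCNNNGAA for STAT factors, GTAAACA for forkhead factors, ACGTG for hypoxia response and GGGCGG for Sp and KLF factors. The sequences are:
Bcl2l1, chr2:152831679-152831978, minus strand: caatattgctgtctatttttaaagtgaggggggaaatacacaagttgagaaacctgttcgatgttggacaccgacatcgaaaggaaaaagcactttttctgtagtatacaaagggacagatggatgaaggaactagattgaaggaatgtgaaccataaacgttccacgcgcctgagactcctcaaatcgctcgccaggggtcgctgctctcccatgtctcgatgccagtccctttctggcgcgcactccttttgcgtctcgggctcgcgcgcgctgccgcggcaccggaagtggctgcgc
Bcl2l11, chr2:128125788-128126087, plus strand: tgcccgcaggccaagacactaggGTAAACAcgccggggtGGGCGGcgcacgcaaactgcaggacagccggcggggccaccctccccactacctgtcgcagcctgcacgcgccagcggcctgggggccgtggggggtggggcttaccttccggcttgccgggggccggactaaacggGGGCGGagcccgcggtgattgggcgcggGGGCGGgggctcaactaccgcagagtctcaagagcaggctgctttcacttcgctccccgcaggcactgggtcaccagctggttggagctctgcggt
Bnip3, chr7:138909457-138909756, minus strand: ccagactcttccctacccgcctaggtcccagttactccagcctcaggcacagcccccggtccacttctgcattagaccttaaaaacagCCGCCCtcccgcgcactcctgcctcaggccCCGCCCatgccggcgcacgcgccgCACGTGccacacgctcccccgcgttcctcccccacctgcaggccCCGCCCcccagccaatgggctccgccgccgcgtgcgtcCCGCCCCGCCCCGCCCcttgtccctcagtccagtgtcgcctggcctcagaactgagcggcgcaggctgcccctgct

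None of the 3 Bcl2l1 windows held any of the 4 sets of letters. The Bcl2l11 window shown held GTAAACA at position -227 from the start site, which 3.65% of all 32851 promoter windows hold, and 3 matches to GGGCGG, which 35.7% of windows hold. The second Bcl2l11 window held 3 matches to GGGCGG and none to GTAAACA. The Bnip3 window held CACGTG, in which ACGTG is read on both strands (19.6% of windows hold ACGTG), and 6 matches to GGGCGG, of which 3 overlap at their ends. A match describes the letters only.

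Among the survival genes, Bcl2l1 encodes Bcl-xL, a guardian of the outer membrane. It measured 7.61, 7.59 and 7.97 in the knockout against 7.24, 7.11 and 7.49 in the wild type (log2 signal). The groups did not overlap, but the lowest knockout array lay only 0.10 above the highest wild-type array. The mean was 7.72 ± 0.21 against 7.28 ± 0.19 (SD, n = 3), a log2 difference of 0.44 or 1.36-fold, and it is this difference that led to the choice of the family.

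The range of Bcl2l1 within a genotype was close in size to the difference between genotypes. Its signal ran from 7.59 to 7.97 in the knockout and from 7.11 to 7.49 in the wild type. Knockout replicate 3 stood 0.69 above the wild-type mean, and knockout replicates 1 and 2 stood 0.33 and 0.31 above it. Without knockout replicate 3 the log2 difference was 0.32, and without knockout replicate 2, the array high in Myl4 and Myl7, it was 0.51. The highest knockout array was the one labelled 13 weeks and the highest wild-type array the one labelled 12 weeks. With age as a covariate the difference was 0.53.

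**Figure D1:**
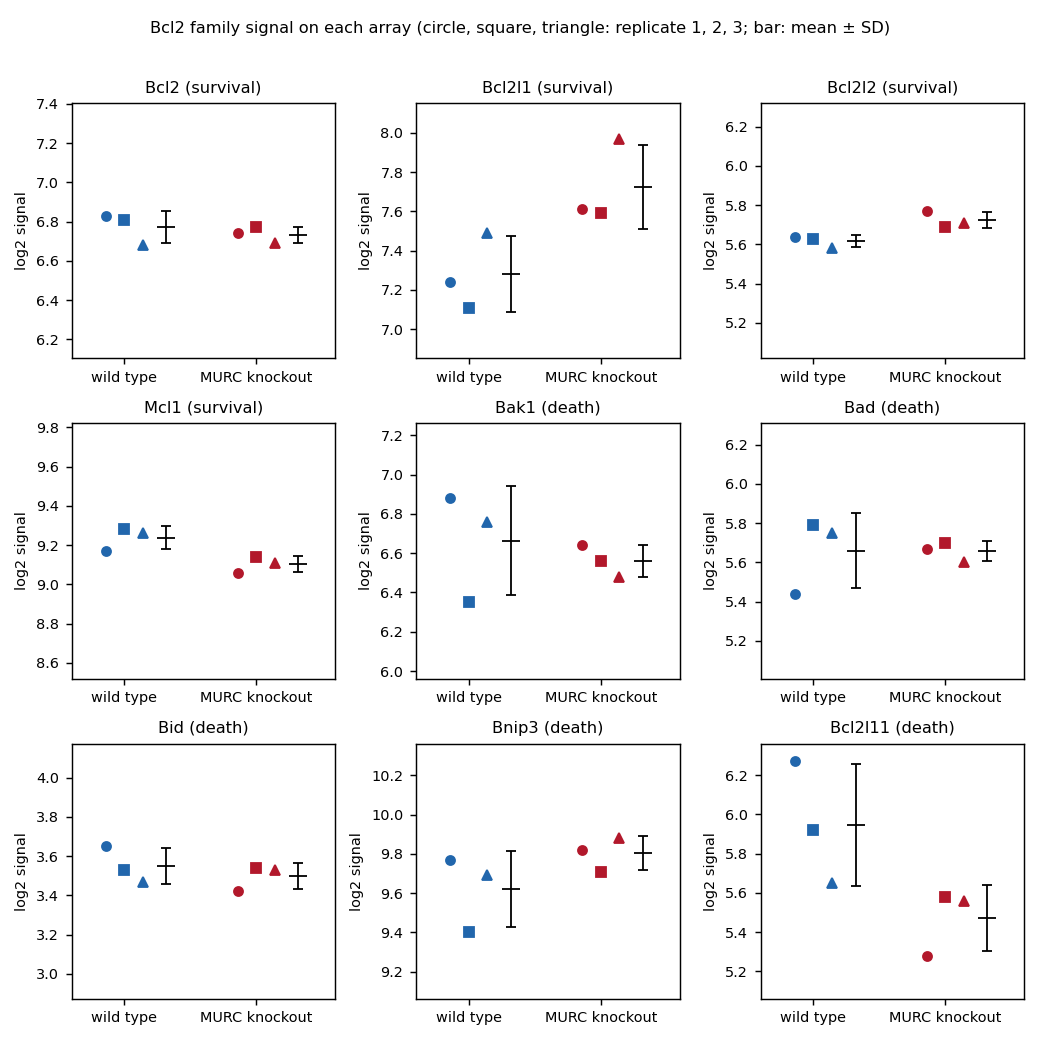
Log2 signal of the 9 measured members on each array, with wild type on the left in blue and knockout on the right in red of each panel; symbols mark the replicate, bars the mean ± SD, and every panel spans the same log2 range. Bcl2l1, Bcl2l2, Mcl1 and Bcl2l11 show no overlap between genotypes, and the wild-type points of Bcl2l11 spread from 5.65 to 6.27.

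Mcl1, the short-lived survival protein that heart muscle depends on, moved the other way in value. It measured 9.06, 9.14 and 9.11 in the knockout against 9.17, 9.28 and 9.26 in the wild type. All knockout arrays lay below all wild-type arrays, by at least 0.03. The log2 difference was -0.13 (SE 0.06, 95% interval -0.27 to 0.0016, limma adjusted p = 0.37).

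Bcl2l2 encodes Bcl-w. It measured 5.77, 5.69 and 5.71 in the knockout against 5.64, 5.63 and 5.58 in the wild type, and the groups lay 0.05 apart. Its log2 difference of 0.11 (SE 0.08, 95% interval -0.07 to 0.29) did not pass (limma adjusted p = 0.608). Bcl2, the founding survival gene, measured 6.74, 6.77 and 6.69 in the knockout against 6.83, 6.81 and 6.68 in the wild type. These values overlapped, with a log2 difference of -0.04 (SE 0.07) and a 95% interval from -0.21 to 0.13. After quantile normalization that value was 0.00083, so Bcl2 has no direction here.

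The survival genes thus did not share a direction: Bcl2l1 and Bcl2l2 measured higher in the knockout, Mcl1 lower, and Bcl2 within the spread of its replicates.

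Of the death genes, Bcl2l11 had the widest difference. It encodes Bim, the BH3-only protein that binds every survival member. It measured 5.28, 5.58 and 5.56 in the knockout against 6.27, 5.92 and 5.65 in the wild type. The highest knockout array lay 0.07 below wild-type replicate 3, and wild-type replicate 1 stood well above the others. The mean was 5.47 ± 0.17 against 5.95 ± 0.31 (SD, n = 3), a log2 difference of -0.47 (SE 0.17, 95% interval -0.86 to -0.08), or 1.39-fold. The unadjusted p was 0.0232 and the limma adjusted p was 0.282. Over all settings tried the adjusted p ran from 0.136 to 0.529. Without wild-type replicate 1 the log2 difference was -0.31, and with age as a covariate it was -0.33.

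Bak1, the pore former that resides in the mitochondrial membrane, measured 6.64, 6.56 and 6.48 in the knockout against 6.88, 6.35 and 6.76 in the wild type. Wild-type arrays took both the highest and the lowest value. The log2 difference of -0.10 (SE 0.14) became 0.005 without wild-type replicate 1 and -0.26 without wild-type replicate 2. Bad, the BH3-only protein that survival kinases such as AKT switch off by phosphorylation, measured 5.67, 5.70 and 5.60 against 5.44, 5.79 and 5.75. Its knockout values fell inside the wild-type range, and its log2 difference of -0.0033 (SE 0.11) changed sign with scaling, to 0.03 after quantile normalization and 0.02 after median centring.

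Bid links death receptors to the mitochondrion once caspase-8 has cut it. It was the dimmest member, at 3.42, 3.54 and 3.53 in the knockout against 3.65, 3.53 and 3.47 in the wild type, where the filter on low signals stood at 3.45. Its values overlapped, with a log2 difference of -0.05 (SE 0.12). That value was -0.0033 without wild-type replicate 1, -0.02 without knockout replicate 1, -0.09 without wild-type replicate 3 and -0.0093 with age as a covariate.

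Bnip3 is induced by low oxygen and serves as a receptor for mitophagy. Its brighter probe set measured 9.82, 9.71 and 9.88 in the knockout against 9.77, 9.40 and 9.69 in the wild type. A low wild-type replicate 2 made most of its log2 difference of 0.18 (SE 0.10, limma adjusted p = 0.492), which was 0.07 without that array. The second probe set, annotated with the same accessions, measured 0.14 higher with overlapping groups.

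**Figure D2:**
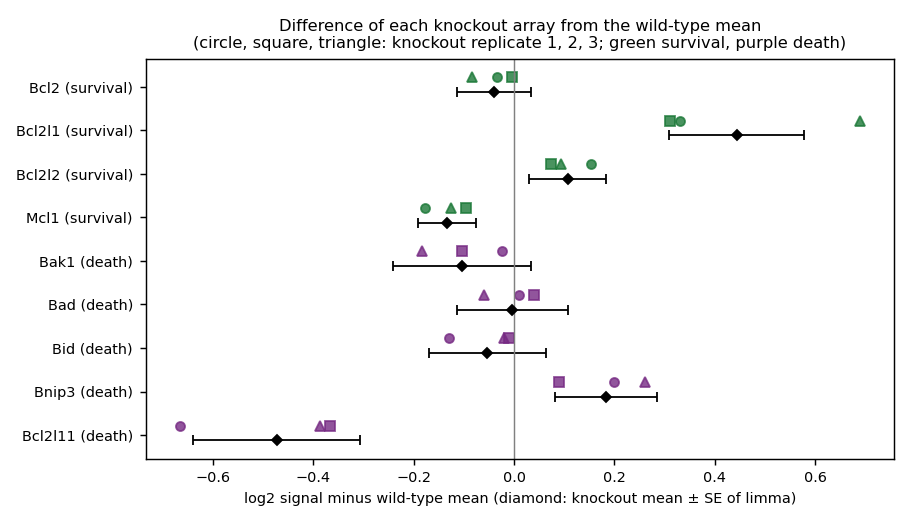
Log2 signal of each knockout array minus the wild-type mean for the 9 measured members, survival genes in green and death genes in purple, with a diamond for the knockout mean and a bar of 1 SE from limma. Bcl2l1 at 0.44 and Bcl2l11 at -0.47 lie apart from the other members, which lie between -0.13 and 0.18.

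All 9 measured genes passed the filter on low signals. Of the 8 other than Bcl2l1, 0 passed at an adjusted p under 0.05 in limma, where 1 probe set, that of Cavin4, or 0.00402% of 24898 did. At an unadjusted p under 0.05 there was 1 of 8, Bcl2l11, against 11.5% of 15298 named genes, 2.5% higher and 8.97% lower. In 3 of the 8 the arrays of each genotype lay wholly apart (Bcl2l2 higher, Mcl1 and Bcl2l11 lower), against 18.7% of named genes, 4.64% higher and 14.1% lower. The median log2 difference of the 8 was -0.05, and that of all named genes -0.04. Among all named genes with an unadjusted p under 0.05, 383 were higher and 1372 lower as deposited, and 708 were higher and 1042 lower after quantile normalization. A lower value is therefore the commoner one in this comparison, and how much commoner depends on the scaling.

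The balance of survival against death was read in RNA only, since protein and its activity were not measured. Within each array it was the mean log2 signal of the 4 survival genes minus that of the 5 measured death genes. Probe sets of different genes share no scale, so only the difference between arrays is meaningful. It measured 1.13, 1.08 and 1.16 in the knockout against 0.82, 1.01 and 0.99 in the wild type. Every knockout array lay above every wild-type array, the closest by 0.07. The knockout mean was 1.12 ± 0.04 and the wild-type mean 0.94 ± 0.11 (SD, n = 3), 0.18 apart. It remained between 0.12 and 0.22 with each array left out in turn.

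That balance rested on a single gene from each side. Without Bcl2l1, which had been picked for its rise, the difference between genotypes was 0.07 and the groups overlapped. Without Bcl2l11 it was 0.09, again with overlap. Without both, the values were 0.80, 0.82 and 0.80 for knockout against 0.78, 0.97 and 0.76 for wild type, a difference of -0.03. Over the other 7 genes the genotypes overlapped. Leaving out Bnip3, whose best described role is mitophagy, gave 0.25.

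**Figure D3:**
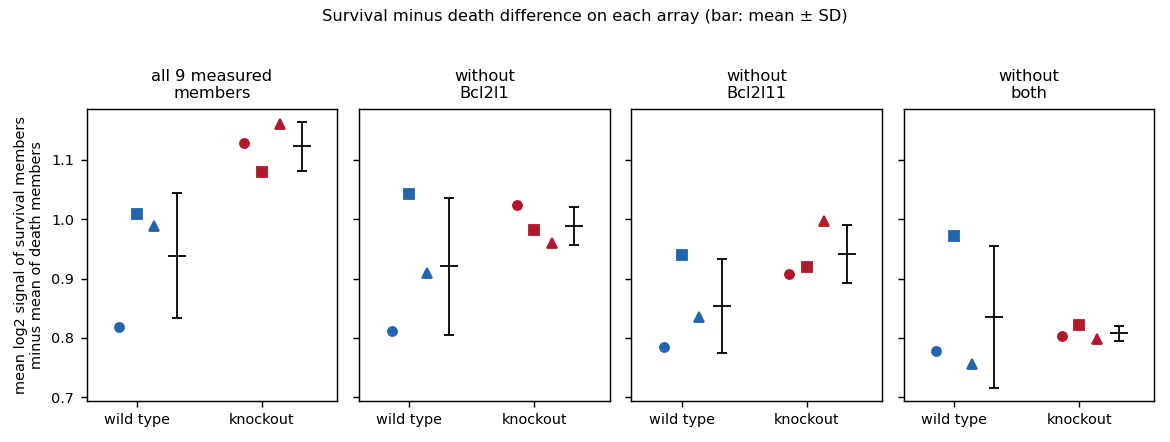
Mean log2 signal of survival genes minus mean of death genes on each array, over all 9 measured genes and without Bcl2l1, without Bcl2l11 and without both, wild type in blue and knockout in red, with mean ± SD. The genotypes separate only in the first panel, and the difference goes from 0.18 to -0.03 across the panels.

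Pairs of single genes separated the genotypes in some cases and not in others. With Bax not analysed here, Bak1 stood for the pore formers, chosen with the values in view. Bcl2l1 minus Bak1 measured 0.97, 1.03 and 1.49 in the knockout against 0.36, 0.76 and 0.73 in the wild type, 0.55 apart without overlap. Bcl2l1, picked for its rise, differed by 0.44 and Bak1 by -0.10, so this pair mostly repeats the difference of Bcl2l1. Bcl2 minus Bak1 overlapped, at 0.10, 0.21 and 0.21 against -0.05, 0.46 and -0.08, with means 0.06 apart. Mcl1 minus Bak1 overlapped as well, with a difference of -0.03. Bcl2l1 minus Bcl2l11, a pair picked for having the widest differences, measured 2.33, 2.01 and 2.41 against 0.97, 1.19 and 1.84, 0.92 apart. Wild-type replicate 3 came within 0.17 of the lowest knockout array in that pair. Bcl2 minus Bcl2l11 measured 1.46, 1.19 and 1.13 against 0.56, 0.89 and 1.03, 0.43 apart with a gap of 0.10. Bcl2 itself differed by -0.04 and Bcl2l11, picked for its wide difference, by -0.47. This pair therefore mostly repeats the difference of Bcl2l11. Mcl1 minus Bcl2l11 overlapped, with means 0.34 apart.

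Other genes of the pathway were described through 6 fixed lists with 54 genes, of which 46 had a named probe set and 45 passed the filter. Of these, 0 passed at an adjusted p under 0.05 in limma. At an unadjusted p under 0.05, 2 were higher and 7 lower, which is 20.0% against 11.5% of named genes. The genotypes did not overlap in 16, 4 higher and 12 lower, or 35.6% against 18.7%. The median log2 difference was -0.09, against -0.04 for all named genes. The lists were chosen with earlier results of these data known, so these shares describe the listed genes only. In the main fit 383 named genes were higher and 1372 lower at an unadjusted p under 0.05, of 15298. Without knockout replicate 2 the listed genes gave 2 and 7, beside 333 and 1114 of 15301 named genes. Without wild-type replicate 1 they gave 2 and 7, beside 584 and 927 of 15307. After quantile normalization they gave 3 and 7, beside 708 and 1042 of 15295. The counts within single lists moved between these settings.

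The remaining Bcl2 family genes tested held no survival gene. The survival gene Bcl2l10 fell below the filter, and no probe set was named Bcl2a1a, Bcl2a1b or Bcl2a1d. The genes tested were death genes together with the mitochondrial receptor genes Bnip3l and Bcl2l13. Of 9, 8 measured lower and 1 higher, where 62.8% of named genes measured lower. Their median log2 difference was -0.19. Bmf, a BH3-only protein held on the cytoskeleton until cells detach, measured 4.99, 4.86 and 4.69 in the knockout against 5.15, 5.11 and 5.26 in the wild type. All knockout arrays were below all wild-type arrays, with a log2 difference of -0.33 (SE 0.11, limma adjusted p = 0.26).

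The close relative of Bnip3, Bnip3l, is a mitophagy receptor known from maturing red cells. It measured 9.15, 9.09 and 8.95 against 9.39, 9.39 and 9.27, again without overlap, with a log2 difference of -0.29 (SE 0.07, limma adjusted p = 0.155). Its second probe set gave -0.20 with overlap. The mitochondrial receptor gene Bcl2l13 measured -0.30 (limma adjusted p = 0.219) without overlap, and Bik, a BH3-only gene of the endoplasmic reticulum, -0.27 with overlap. Leaving out wild-type replicate 1 put Bik at -0.15, leaving out wild-type replicate 3 put it at -0.44, and age as a covariate put it at -0.11. Bnip3 and Bnip3l, both mitophagy receptors, thus differed in sign, and neither passed.

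Of the apoptosome and caspase genes, Casp6, an executioner caspase, had the widest difference. It measured 6.20, 6.19 and 5.78 in the knockout against 6.62, 6.64 and 6.50 in the wild type. The lowest wild-type array stood above the highest knockout array, and knockout replicate 3 was the lowest of all. The log2 difference was -0.53 (SE 0.13, limma adjusted p = 0.138), and -0.39 without knockout replicate 3. With the fit limited to probe sets listed in the annotation its limma adjusted p was 0.0387. In that fit 361 probe sets passed, against 1 in the main fit. Over all settings the adjusted p of Casp6 ran from 0.0387 to 0.282. Casp8, the initiator caspase that cuts Bid, measured a log2 difference of -0.27 (limma adjusted p = 0.243) without overlap. Apaf1, the scaffold of the apoptosome, measured 0.16 higher without overlap, and Cycs, which encodes cytochrome c, measured -0.07 with overlap. Of the 6 tested, 2 were lower and 0 higher at an unadjusted p under 0.05, against 8.97% lower and 2.5% higher of named genes.

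Among caspase inhibitors and their antagonists, 1 of 7 had an unadjusted p under 0.05, against 11.5% of named genes. This was Birc2, a ubiquitin ligase that restrains caspases and death receptor signals, at 6.24, 6.20 and 6.47 in the knockout against 6.08, 5.72 and 5.98 in the wild type. The groups did not overlap, and the log2 difference was 0.38 (SE 0.12, limma adjusted p = 0.247), but its dimmer second probe set measured -0.04. The giant inhibitor gene Birc6 measured -0.11 without overlap. Htra2 and Diablo, whose products leave the mitochondrion to disable the inhibitors, measured -0.20 and 0.10, both with overlap. Diablo was 0.04 without wild-type replicate 2 and 0.17 without wild-type replicate 1.

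In the death receptor list, 1 of 6 had an unadjusted p under 0.05, against 11.5% of named genes. It was the adaptor gene Fadd, at -0.25 (SE 0.09, limma adjusted p = 0.319). Its groups lay only 0.02 apart, and its log2 difference ran from -0.31 to -0.18 with each array left out. The receptor genes Tnfrsf1a and Tnfrsf10b measured -0.25 and -0.26, both without overlap, and Fas 0.19 with overlap. Single arrays moved the receptor genes. Tnfrsf1a was -0.14 without knockout replicate 3, Tnfrsf10b -0.13 without knockout replicate 1, and Fas 0.10 without knockout replicate 3. Leaving out wild-type replicate 2 put Fas at 0.02, and leaving out wild-type replicate 3 put it at 0.36. With knockout replicate 2 or wild-type replicate 1 left out, 0 of the 6 had an unadjusted p under 0.05.

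Of the 11 partners at the mitochondrion, 1 was higher and 1 lower at an unadjusted p under 0.05, against 2.5% and 8.97% of named genes, with a list median of 0.0067. Bag1, a cochaperone that binds Bcl2, measured 8.49, 8.46 and 8.52 in the knockout against 8.35, 8.26 and 8.12 in the wild type. Its 3 knockout arrays were close together and all above the wild type, by a log2 difference of 0.25 (SE 0.07, limma adjusted p = 0.214). Ywhaz, an adaptor that holds phosphorylated Bad in the cytosol, measured -0.24 without overlap (limma adjusted p = 0.183), while its second probe set measured -0.01. The channel genes Vdac1 and Vdac2 of the outer membrane measured 0.11 and -0.11, which was 0.07 for Vdac1 without wild-type replicate 1 and -0.06 for Vdac2 without knockout replicate 3. Of 6 transcription factors upstream of the family 0 had an unadjusted p under 0.05 or lacked overlap. Stat3 measured -0.10, Rela -0.12, Stat5a -0.09 and Foxo3, a forkhead factor, 0.10. Stat3 ran from -0.06 without wild-type replicate 3 to -0.16 without wild-type replicate 1, and Rela from -0.06 without wild-type replicate 2 to -0.19 without wild-type replicate 3. Without knockout replicate 3 Foxo3 and Stat5a both measured closer to 0, at 0.03 and -0.03.

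**Figure D4:**
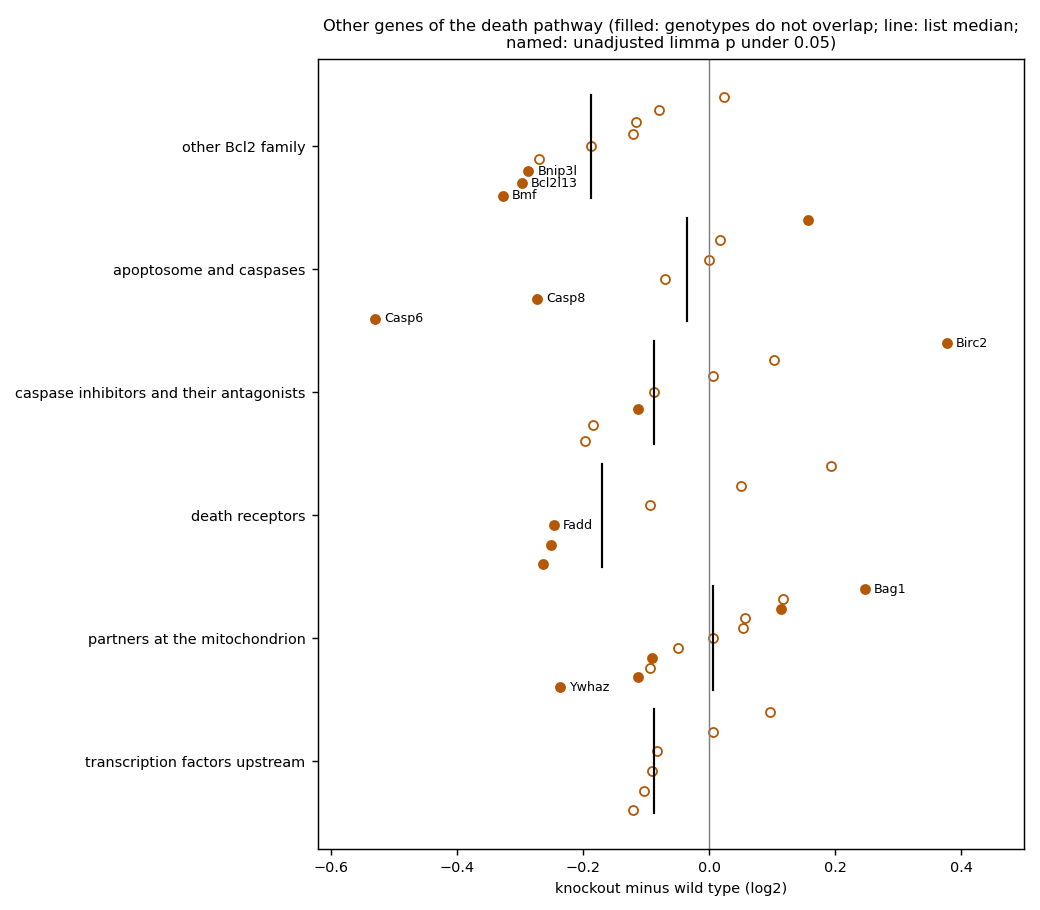
Knockout minus wild-type log2 difference of the 45 tested genes in 6 lists, 1 point per gene, filled where the genotypes did not overlap and named where the unadjusted limma p was under 0.05, with a line at each list's median. The other Bcl2 family genes lie mostly left of 0 with a median of -0.19, and Casp6 at -0.53 and Birc2 at 0.38 lie at the edges.

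Markers of other cell types were measured on the same arrays. Of 6 smooth muscle and pericyte markers 5 measured higher, and their mean log2 signal ran from 7.14 to 7.21 in the knockout and from 6.98 to 7.07 in the wild type, without overlap. Myh11 was 0.35 and Tagln 0.42 higher in the knockout, both without overlap. Cnn1 at 0.16, Acta2 at 0.10, Rgs5 at 0.09 and Pdgfrb at -0.15 overlapped. Erythroid cells, which are known for high Bcl2l1 and Bnip3l, had named probe sets for 3 of 11 listed markers (Alas2, Slc4a1 and Bpgm) and none for a globin. Their mean ranged from 5.24 to 5.85 in the knockout and from 5.57 to 5.94 in the wild type. Leukocyte markers ranged from 5.08 to 5.29 and from 5.19 to 5.41, endothelial markers from 8.61 to 8.68 and from 8.47 to 8.74, and fibroblast markers from 7.71 to 7.87 and from 7.83 to 7.92. Skeletal muscle markers ranged from 4.95 to 5.11 against 4.76 to 4.92. Acta1, by far the brightest of them, was 0.59 higher without overlap. Actn3 at 0.16, Myh1 at 0.06 and Tnnt3 at -0.01 overlapped, and Pvalb and Myh4 lay below the filter. The part of these markers in the values of Bcl2l1, Bcl2l11 and the other genes was not tested.

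The 5 named genes whose array profile was closest to that of Bcl2l1 were found among 15289 by the root mean square difference of profiles centred over the 6 arrays. The closest was E230001N04Rik at 0.05, followed by Rgcc at 0.06, which encodes a regulator of the cell cycle, and Timp4 at 0.08, an inhibitor of metalloproteinases. The interferon-inducible Ifi205 at 0.08 and the potassium channel gene Kcna5 at 0.09 came next, where the median over all compared genes was 0.32. Rgcc measured 7.78, 7.79 and 8.05 in the knockout against 7.53, 7.30 and 7.71 in the wild type. Timp4 measured 8.21, 8.28 and 8.52 against 7.67, 7.62 and 7.98. Like Bcl2l1, both were highest in knockout replicate 3 and lowest in wild-type replicate 2. With 6 arrays and so many genes, close profiles are found by the search itself, and they are a description.

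**Figure D5:**
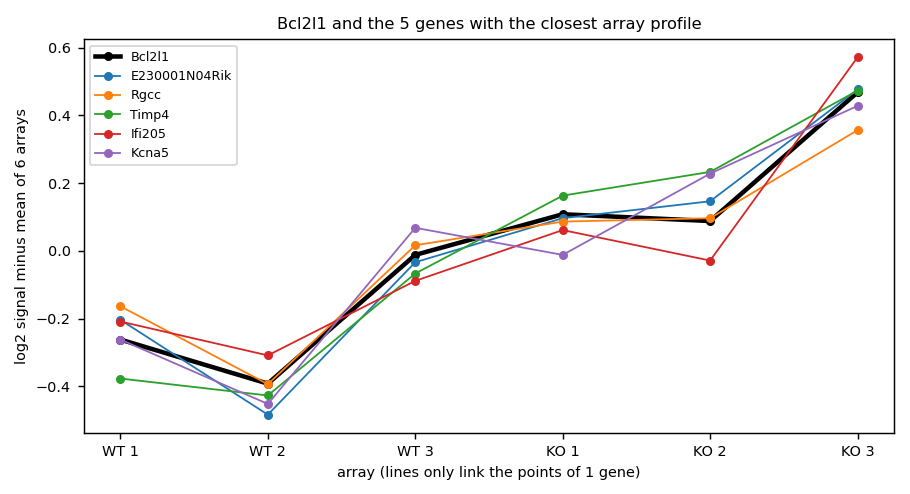
Log2 signal minus the mean of the 6 arrays for Bcl2l1 (thick black line) and the 5 named genes with the closest profile, by array. All 6 genes are lowest in wild-type replicate 2 and highest in knockout replicate 3.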

How the data were processed

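Total RNA, 100 ng per sample and extracted with TRIzol per the labels' protocols, was hybridised to Affymetrix arrays. The authors deposited log2 expression values, to 2 decimals, from 0.46 to 13.72; the log2 scale was read from that range. MAS5 is named in the submitters' processing notes, with no role, and the sources used here do not give how probes were summarized or arrays scaled. Platform symbols (21789 probe sets with 1, 1621 with several, 12146 not listed) were updated by gene identifier through RefSeq of GRCm38.p6, which matched 21698.

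Knockout minus wild type was fitted in R 4.3.3 with limma 3.58.1 (lmFit, eBayes with intensity trend) over the 24898 probe sets with a mean at or above the 30th percentile (3.45), two-sided, with Benjamini-Hochberg adjustment over all of them and a threshold of 0.05. The brightest probe set stood for a gene. The fit was tested on simulated data. The members and lists were chosen with earlier results of these data known. Named are all members, up to 4 genes per pathway list with the smallest p, the 5 profiles closest to Bcl2l1, and Cavin4. Markers and pairs were named outside this rule, after their values were seen. The planned Bcl2l1 minus Bax pair could not be computed. Depth does not apply to arrays, whose number limits the precision. Alternatives covered scaling, filter, probe sets, age, weights, trend, block and each array left out.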

Additional observations from a re-analysis of the deposited data

How the results depend on the processing

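None of the 8 tested members passed the adjusted threshold under any of the 15 alternatives run, with Bid not tested under the stricter filter. The count of calls over all probe sets, 1 as deposited, was 130 after quantile normalization, 105 after median centring, 48 with the filter at the 50th percentile, 361 with annotated probe sets only, 34 with age as a covariate, 126 with array weights and 0 to 11 with each array left out (Cavin4 alone had passed). The replicate numbers did not pair the arrays, since the deviations of same-numbered arrays correlated at -0.059, 0.021 and -0.057; with the replicate block 0 probe sets passed. Survival minus death stayed between 0.12 and 0.22 without each array, and was 0.0678 without Bcl2l1 and 0.0883 without Bcl2l11, the latter chosen after seeing the data. Small values changed sign: Bcl2 measured 0.00083 after quantile normalization, Bad 0.0283 after quantile normalization, 0.0167 after median centring and -0.113 to 0.0617 with each array left out, Bak1 -0.26 to 0.005 and Bcl2 minus Bak1 -0.0317 to 0.238 with each array left out. Bcl2l1 measured 0.32 to 0.55 and Bcl2l11 -0.62 to -0.31 with each array left out. Casp6 passed at 0.0387 among annotated probe sets only, where limma was fitted anew on fewer probe sets and 361 passed. With 3 arrays a group, the 95% interval of the log2 difference included 0 for each tested member except Bcl2l11, and Bid lay near the filter on low signals.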
